A study of Mus musculus with 42 samples.

Results

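Homologous recombination and Fanconi repair genes were described across muscle precursors. The list held 37 mouse genes, chosen by symbol from knowledge of these pathways and with earlier results of these data known. All 37 were found among the 24466 gene symbols of the RNA-seq count tables. All 37 also passed the filter on low counts, which left 14836 genes in all.

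RNA had been sequenced from 8 libraries in 3 groups. iPax7 cells are myogenic progenitors derived from mouse embryonic stem cells that carry a doxycycline (Dox) inducible Pax7; Pax7 is the transcription factor that marks muscle stem cells. The +Dox group (3 libraries) was grown with 0.75 µg/ml Dox, and the -Dox group (2 libraries) came from the same iPax7 cells 3 days after Dox was washed out, in otherwise the same medium with basic FGF. The satellite cells (3 libraries), the resident stem cells of adult skeletal muscle, were taken from muscle of Pax7-ZsGreen reporter mice and were not cultured. Thus Pax7 was driven from a transgene in +Dox cells and from its own locus in satellite cells, and a difference between satellite cells and iPax7 cells is also one between tissue and culture. Nothing in the labels says whether the libraries of a group came from separate cultures or animals, so p-values measure only the spread between these libraries.

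As background, homologous recombination repairs a DNA break by copying the sister chromatid, and is therefore used mainly while DNA is replicated. Resection enzymes expose a single-stranded end, BRCA1, PALB2 and BRCA2 prepare it for pairing, and the paralogs encoded by Rad51b, Rad51c, Rad51d, Xrcc2 and Xrcc3 and the RAD54 proteins assist the search and exchange of strands. The joined molecules are then taken apart by the BLM complex or cut by structure-selective nucleases. The Fanconi anaemia pathway removes crosslinks between DNA strands: a core complex with the E2 enzyme UBE2T attaches ubiquitin to the FANCD2-FANCI pair, which then directs nucleases and recombination factors to the lesion. Satellite cells of resting adult muscle are known to be mostly out of the cell cycle, and differentiating muscle cells leave it.

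To show where the promoters of these genes resemble each other, the stretches below hold a match to letters that E2F factors, regulators of S-phase genes, are known to bind. The letters searched were TTCCCGC and, as variants of them, the letters TTGGCGC, then the letters TTCGCGC and the letters TTGCCGC, on both strands, in RefSeq promoters (build GRCm38.p6) that run from 250 bases before to 50 bases after a start. Each line gives 30 bases 5′ to 3′ on the gene's own strand, with the match in capitals, for 5 members that were lower without Dox in at least 1 of the fits described below and then for 3 that were not.
Bard1 (chr1:71103163-71103192, minus strand): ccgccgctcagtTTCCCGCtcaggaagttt
Brca2 (chr5:150522441-150522470, plus strand): ttttaggccacaGCGGGAAacagacacaca
Fancb (chrX:164980408-164980437, plus strand): tccggggtagagGCGGGAAtaagtgctctg
Fancg (chr4:43010335-43010364, minus strand): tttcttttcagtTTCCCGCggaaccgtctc
Ube2t (chr1:134962426-134962455, plus strand): atacgcgtgcgcGCGCCAAtttgagcggtg
Rad51c (chr11:87405005-87405034, minus strand): acgcgcgcgtggGCGCCAAccactccctac
Rad52 (chr6:119902554-119902583, plus strand): cttgctgcggctGCGGGAAggctgatcgcc
Fancm (chr12:65075537-65075566, plus strand): caaccaatcatcTTCCCGCcgcaaaatcgg

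The promoter table held 27 of the 37 members; Rad51d, Xrcc2, Rad54b, Rad50, Nbn, Rbbp8, Exo1, Rmi2, Top3a and Fancd2 had no entry. Since under 80% of the list had a sequence, a comparison of the list with other genes by its promoters is void, and the counts describe the 27 only. E2F letters stood in the promoters of 14 of the 27; they stood in those of 18.4% of the 11734 tested genes with an entry and in 9.57% of all 32851 promoters of this length in the table. The letters TTTGAA stood in 3 of the 27 (14.7% of tested genes, 17.9% of all promoters), and CCAAT, which overlaps GCGCCAA matches that are followed by T, in 17 (42.5% of tested genes, 37.4% of all promoters). Rad52 carried the same GCGGGAA letters as Brca2 and Fancb, although its log2 difference without Dox was positive and theirs were negative. A match is a description of letters and not a bound site.

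Counts on genes ranged from 48203901 to 54674619 in the 5 iPax7 libraries and from 39010958 to 43811197 in the satellite libraries. The share of reads that mapped to more than 1 place was 7.11 to 7.6% in iPax7 libraries and 23.6 to 30.7% in satellite libraries. Replicate 3 of +Dox stood apart from the other two (r across genes of log2 CPM, counts scaled to library size, 0.976 and 0.980, against 0.993), and satellite libraries correlated at 0.958 to 0.968. Pax7 RNA followed the labels: normalized Pax7 counts were 12759, 14130 and 11610 in +Dox, 221 and 270 in -Dox, and 8504, 3926 and 5456 in satellite cells. These counts per gene do not separate the transgene from the cells' own Pax7. The 3 pluripotency genes Pou5f1, Nanog and Sox2 were at 0 in every iPax7 library. Zfp42, the other of the 4 pluripotency genes listed, had 12.59 to 39.16 normalized counts in +Dox, 0 to 10.15 in -Dox and 0 in satellite cells. A normalized count is the raw count rescaled to a library of average TMM size. All log2 fold changes below come from edgeR's quasi-likelihood test over the 8 libraries with Benjamini-Hochberg adjustment over 14836 genes, and a gene was said to have risen or fallen at an adjusted p under 0.05.

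The members were mostly lower 3 days after Dox withdrawal. Of 37 members, 36 had a negative log2 fold change in -Dox against +Dox, with a median of -1.51, while the median over all genes tested was 0.00 and 50.2% of them were negative. The fall passed the threshold for 6 members: Fancd2, Fanci, Fanca, Ube2t, Rad54l and Rad54b. None rose. Among all genes tested, 3.04% fell, 4.66% rose and 7.70% changed in either direction, so 16.2% of the members fell against 3.04% of all genes. The list was chosen with earlier results of these data known, so such shares describe it and do not test it. In 30 of 37 members both -Dox libraries lay below all 3 +Dox libraries, which held for 22.7% of all genes; the reverse order was seen in 1 member, Rad52, and in 22.7% of all genes. When only the 5 iPax7 libraries entered the fit, 15 members fell, against 7.75% of 13259 genes, and Brca1, Brca2, Bard1, Brip1, Exo1, Eme1, Fancb, Fancg and Xrcc2 joined the 6.

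The count of 6 rested on individual libraries. It was 1 without replicate 1 or replicate 2 of +Dox, 4 without replicate 3 of +Dox, and 2 without either -Dox library; Fancd2 was called in each of these fits, and the other 5 lost their call without replicate 1 or 2 of +Dox (adjusted p = 0.062 to 0.11). Rad54l, Rad54b and Ube2t also lost it without either -Dox library (adjusted p = 0.079 to 0.26). Without satellite replicate 1, which belongs to neither group, it was 11. The direction of 36 of 37 members was the same in all 8 fits that left out 1 library.

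**Figure D1:**
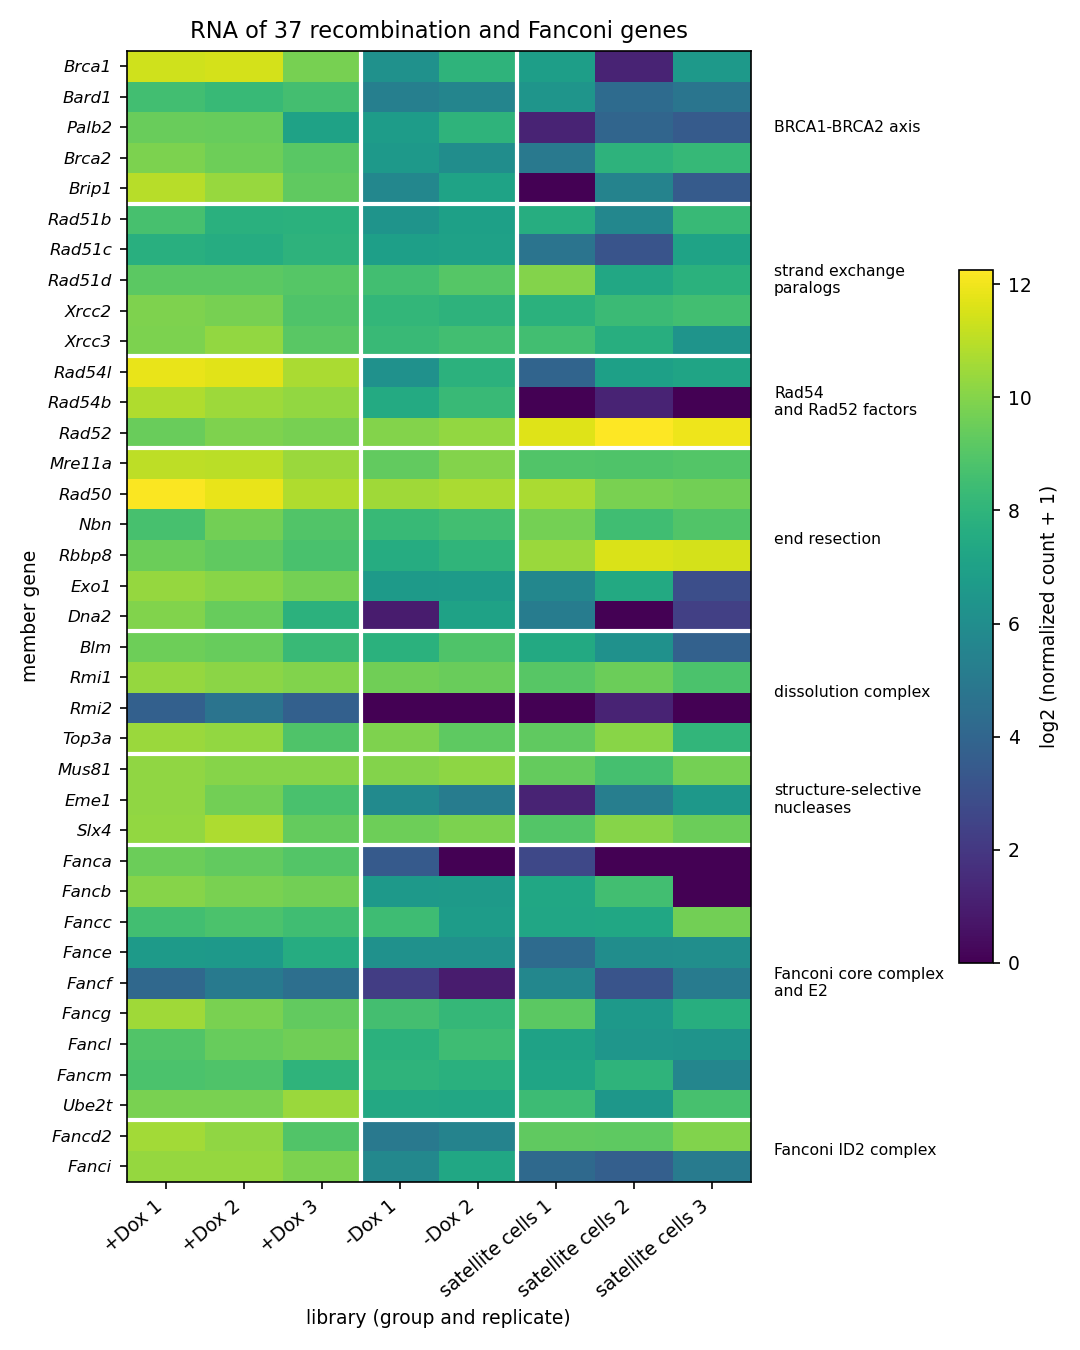
RNA of the 37 members in each of the 8 libraries. Rows are genes ordered by role, columns are libraries, and colour gives log2 (normalized count + 1); most rows are brightest in the 3 +Dox columns, while Rad52 and Rbbp8 are brightest in the 3 satellite columns.

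The summed RNA of the members was also higher in +Dox than in -Dox. The 37 members together had 41248, 37662 and 23662 normalized counts in the +Dox libraries, 10870 and 12882 in the -Dox libraries and 14478, 16153 and 15396 in the satellite libraries. All 5 libraries outside +Dox were thus below the lowest +Dox library. Replicate 3 of +Dox was the lowest of its group for 27 of 37 members (73%), against 38.7% of all genes tested. Its 14 proliferation markers summed to 130093, close to 138541 and 139642 in the other two +Dox libraries.

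Among the proteins that receive the ubiquitin signal, both members fell without Dox. Fancd2 (chr6:113481676-113547011, plus strand, NCBIM37, which is mm9) encodes the protein whose ubiquitination is the central step of the pathway. It had 1491, 1181 and 484 normalized counts in +Dox, 30 and 44 in -Dox, and 612, 587 and 990 in satellite cells. The -Dox libraries lay far below the rest, and the satellite libraries lay within the range of +Dox. The log2 difference of -Dox from +Dox was -4.81 ± 0.67 (SE; adjusted p = 0.0026), a 28.2-fold difference of means, and it passed the threshold in every alternative fit.

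Fanci (chr7:86536815-86595151, plus strand), whose protein is clamped with FANCD2 on DNA, followed another pattern. Its normalized counts were 1278, 1264 and 914 in +Dox, 52 and 159 in -Dox, and 17, 12 and 33 in satellite cells. No 2 groups overlapped, and satellite cells were lowest. The log2 difference of -Dox from +Dox was -3.45 ± 0.71 (adjusted p = 0.017), and satellite cells were lower than +Dox by a log2 difference of -5.79 ± 0.67 (adjusted p = 0.00019) and lower than -Dox by -2.34 ± 0.63 (adjusted p = 0.016), the latter lost without replicate 2 of -Dox (adjusted p = 0.18) and in the fit of these 2 groups alone (adjusted p = 0.145). Fancd2 was instead higher in satellite cells than in -Dox by 4.29 ± 0.66 (adjusted p = 0.00099), and its difference from +Dox was -0.53 ± 0.48 (adjusted p = 0.40).

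The 2 RNAs of this pair therefore stood in different proportions in the groups. On counts per kb of exon, the level of Fancd2 divided by that of Fanci was 0.848, 0.679 and 0.385 in +Dox and 0.421 and 0.203 in -Dox. It was 26, 35.4 and 21.8 in satellite cells, above every iPax7 library. The pair was singled out after its values were seen, and the ratio is given without a test. Exons of Fancd2 share 257 bases with Fancd2os on the other strand, and exons of Fanci share 856 bases with Polg. Whether reads were counted by strand is not given in the sources used here, so how reads from these stretches were assigned is not known. Reads classed as ambiguous between genes were set apart from the gene counts, and made up 1.51 to 2.32% of reads over the libraries. Fancd2os itself had at most 51.9 normalized counts in any library, while Polg was highest in satellite cells (1414 to 1456), where Fanci was lowest.

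**Figure D2:**
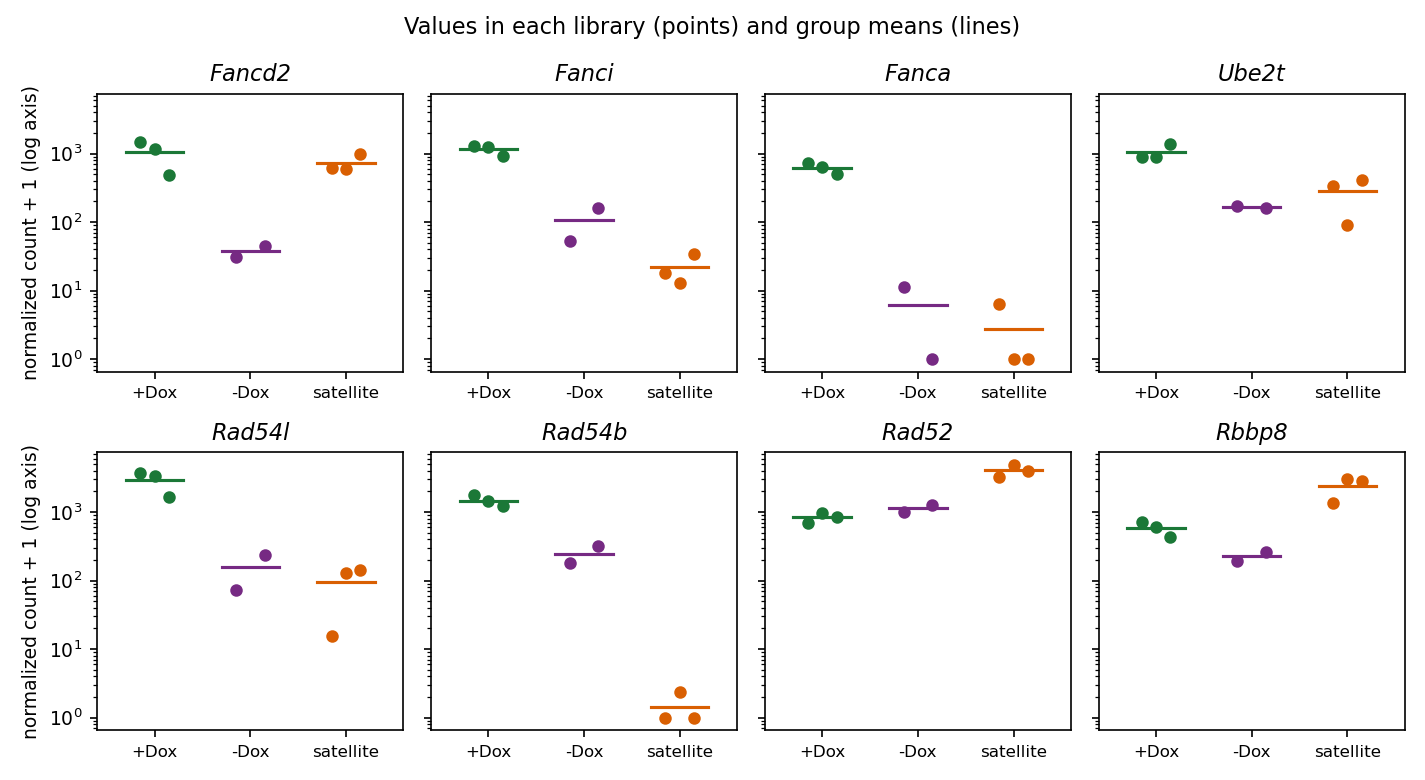
Normalized counts + 1 on a log axis for the 6 members that fell without Dox and for Rad52 and Rbbp8. Points are libraries and lines are group means; Fancd2 is low in the 2 -Dox libraries alone, Fanci, Fanca and Rad54b are low in -Dox and satellite cells, and Rad52 and Rbbp8 are highest in satellite cells.

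In the Fanconi core complex with its E2 enzyme, 2 of 9 members fell without Dox, against 3.04% of all genes. All 9 had both -Dox libraries below all +Dox libraries, against 22.7% of all genes. Fanca (chr8:125792200-125842476, minus strand), a scaffold of the complex, had 723, 635 and 500 normalized counts in +Dox, 10 and 0 in -Dox, and 5, 0 and 0 in satellite cells. It was near 0 in every library outside +Dox. The log2 difference was -6.90 ± 1.69 in -Dox (adjusted p = 0.038) and -8.36 ± 1.54 in satellite cells (adjusted p = 0.0022) against +Dox. Fanca shares 652 exon bases with Zfp276 on the other strand. Its call in -Dox was lost without any +Dox library (adjusted p = 0.074 to 0.11) and without replicate 2 of -Dox (adjusted p = 0.14).

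Ube2t (chr1:136859142-136870739, plus strand), the E2 enzyme that carries the ubiquitin, had 885, 875 and 1380 normalized counts in +Dox, 168 and 162 in -Dox, and 337, 90 and 408 in satellite cells. The -Dox libraries lay within the range of the satellite libraries, and all 5 lay below +Dox. It fell by 2.67 ± 0.69 in -Dox (adjusted p = 0.046), and this call was lost without any single iPax7 library (adjusted p = 0.094 to 0.26). In satellite cells the log2 difference from +Dox was -1.91 ± 0.57 (adjusted p = 0.022), which was lost without replicate 3 of +Dox.

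The other 7 core members, Fancb, Fancc, Fance, Fancf, Fancg, Fancl and Fancm, had log2 fold changes of -3.26 to -0.75 in -Dox and did not pass the threshold. Fancb, a core subunit, had 1063, 874 and 803 normalized counts in +Dox and 97 and 102 in -Dox. The groups lay far apart, while the satellite libraries ranged widely, with 157, 371 and 0. With the 5 iPax7 libraries alone the fall of Fancb passed the threshold (log2 -3.20 ± 0.33, adjusted p = 0.0013). Fancl, the E3 ligase of the complex, had 490, 686 and 770 in +Dox, 223 and 355 in -Dox and 133, 87 and 79 in satellite cells. It was lower in satellite cells than in +Dox (-2.70 ± 0.50, adjusted p = 0.0023) and than in -Dox (-1.54 ± 0.52, adjusted p = 0.042), though the latter call was lost in most alternative fits (adjusted p up to 0.23). Fancl shares 462 exon bases with Vrk2 on the other strand, whose normalized counts were 550.6 to 641.1 in +Dox, 138.5 to 165.4 in -Dox and 138.1 to 245.3 in satellite cells. How reads from this stretch were assigned is not known either. Fancf was measured on at most 50 normalized counts in any library.

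The RAD54 translocases, which move along DNA to help strand exchange, fell, while Rad52, a protein that anneals single strands, did not. Rad54l (chr4:115766869-115796295, minus strand) had 3658, 3350 and 1676 normalized counts in +Dox, 73 and 235 in -Dox, and 14, 126 and 142 in satellite cells. The +Dox libraries were all above the other 5. Its log2 difference was -4.23 ± 0.97 in -Dox (adjusted p = 0.029) and -4.94 ± 0.84 in satellite cells (adjusted p = 0.0014). Rad54l shares 1184 exon bases with Lrrc41 on the other strand, which held 2903 to 7266 normalized counts over the libraries.

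Rad54b (chr4:11486096-11542952, plus strand) had 1763, 1427 and 1221 normalized counts in +Dox and 177 and 314 in -Dox, a fall of 2.58 ± 0.58 (adjusted p = 0.027). In satellite cells its raw counts were 0, 1 and 0. This is a ratio of 3363 to +Dox, with a counting interval (95%) of 603.3 to 132854, and of 555.7 to -Dox, with an interval of 99.31 to 21989; the intervals cover counting error only. The test called both differences (adjusted p = 1.6e-05 and 9.01e-05). Rad54b was the only member with at most 1 raw count in every satellite library beside Rmi2, which was low in all groups.

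Rad52 (chr6:119852716-119872846, plus strand) was the only member with a positive log2 difference without Dox. It had 696, 960 and 852 normalized counts in +Dox, 998 and 1258 in -Dox, and 3233, 4911 and 4017 in satellite cells. No 2 groups overlapped, though the step from +Dox to -Dox did not pass the test (log2 0.43 ± 0.31, adjusted p = 0.49). Satellite cells were higher than +Dox by 2.28 ± 0.29 (adjusted p = 0.00031) and than -Dox by 1.85 ± 0.33 (adjusted p = 0.0023), and each alternative fit kept both calls. Per kb of exon, Rad52 ranked the 13th of the members in +Dox and the highest in -Dox and in satellite cells.

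**Figure D3:**
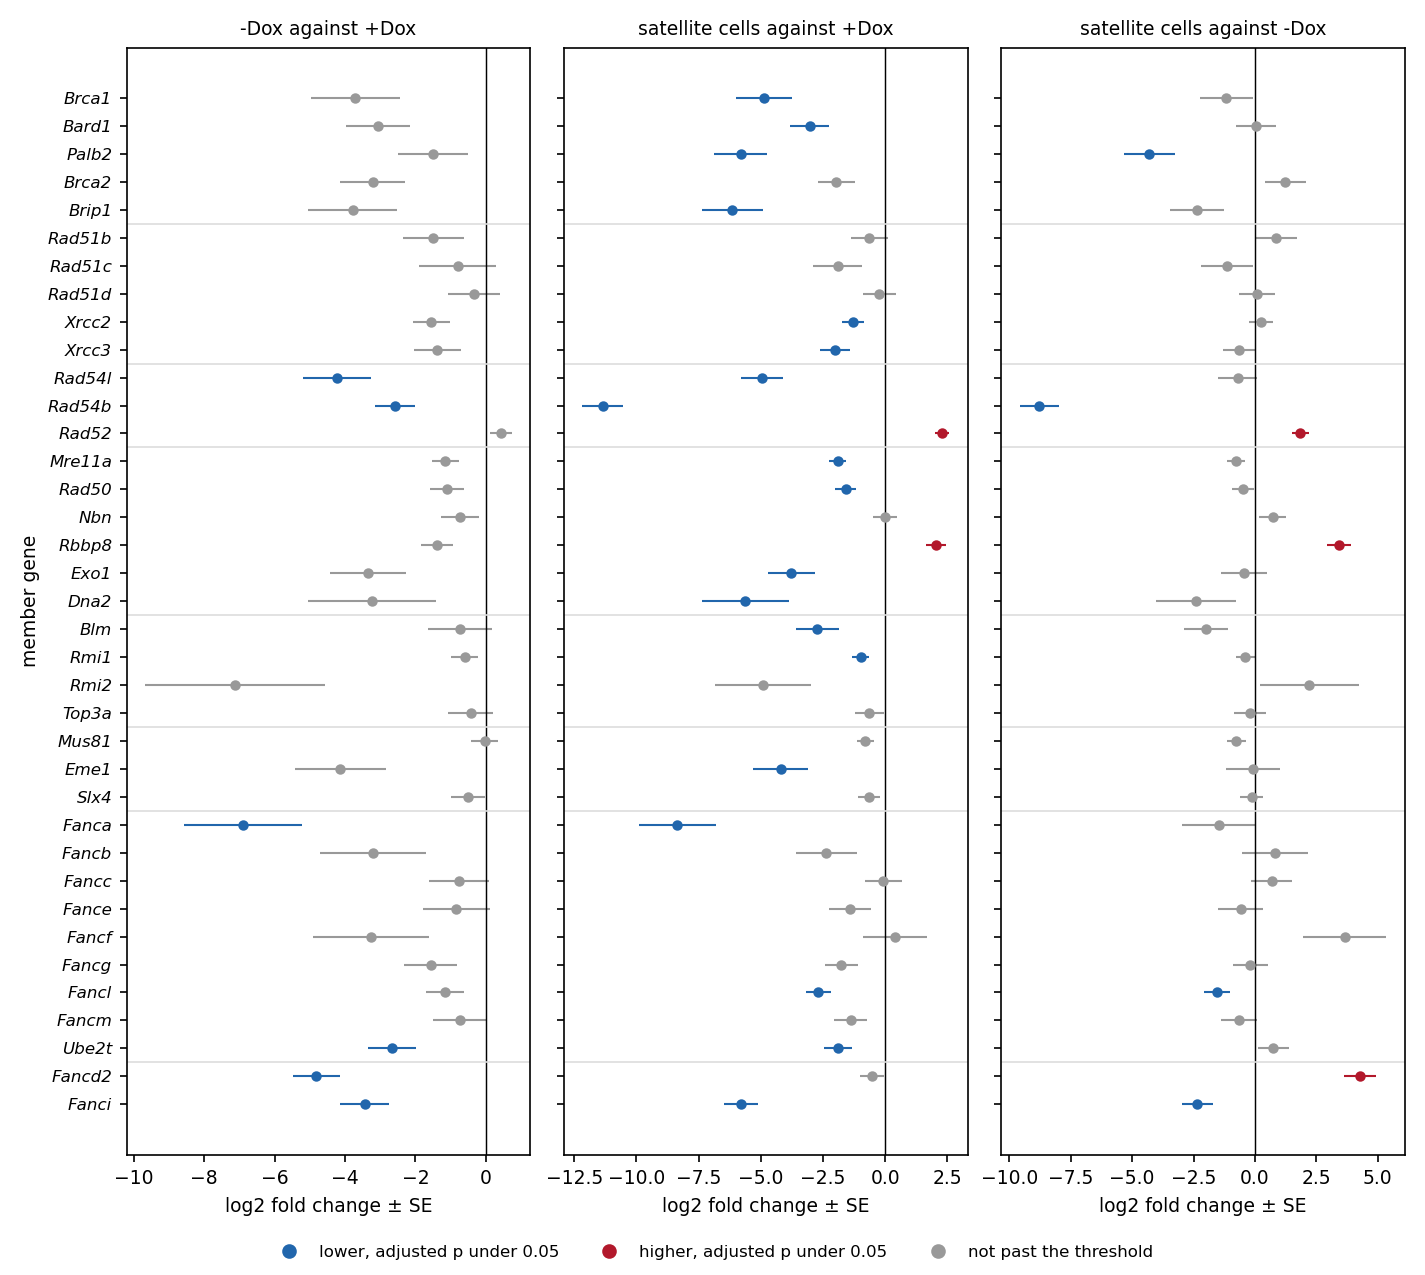
Log2 fold change of each member with its standard error, from edgeR over the 8 libraries, in the 3 comparisons. The sign is the group named first minus the other; blue and red mark members past an adjusted p of 0.05. In -Dox against +Dox 6 members are blue and none is red, against 19 blue and 2 red for satellite cells against +Dox and 4 blue and 3 red for satellite cells against -Dox.

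In the BRCA1-BRCA2 axis, none of the 5 members passed the threshold in -Dox against +Dox with all 8 libraries, while 4 had an unadjusted p under 0.05 in edgeR and 4 were called by DESeq2. The log2 fold changes were -3.78 to -1.51. Brca1, a ubiquitin ligase that promotes resection, had 2652, 2827 and 868 normalized counts in +Dox and 72 and 251 in -Dox (-3.71 ± 1.27, adjusted p = 0.12). Its partner Bard1 had 370, 309 and 384 in +Dox and 39 and 46 in -Dox (-3.06 ± 0.92, adjusted p = 0.079), and Brca2, which acts after resection, had 916, 763 and 557 against 97 and 64 (-3.21 ± 0.92, adjusted p = 0.070). In each of these 3 genes the groups did not overlap. With the 5 iPax7 libraries alone, Brca1 (adjusted p = 0.018), Bard1 (adjusted p = 0.0064), Brca2 (adjusted p = 0.0034) and Brip1 (adjusted p = 0.011) passed.

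In satellite cells 4 of the 5 were lower than in +Dox, where 19.8% of all genes were. Brip1, a helicase that binds BRCA1, had 1939, 1323 and 622 normalized counts in +Dox, 51 and 138 in -Dox, and 0, 44 and 11 in satellite cells (-6.14 ± 1.21, adjusted p = 0.0032). Palb2, which bridges BRCA1 and BRCA2, had 694, 686 and 134 in +Dox, 108 and 246 in -Dox, and 1, 15 and 11 in satellite cells. All satellite values of Palb2 lay below both other groups, with log2 differences of -5.81 ± 1.06 from +Dox (adjusted p = 0.0021) and -4.30 ± 1.03 from -Dox (adjusted p = 0.0098). The latter call was lost without replicate 2 of -Dox (adjusted p = 0.052). Brca2 was the member of the 5 that did not pass (-1.97 ± 0.75, adjusted p = 0.055).

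The 5 paralogs Rad51b, Rad51c, Rad51d, Xrcc2 and Xrcc3, which assist strand exchange, did not pass the test without Dox. Their log2 fold changes in -Dox were -1.55 to -0.32, and none passed the threshold in edgeR (1 at an unadjusted p under 0.05, and 1, Xrcc2, called by DESeq2). Xrcc2 had the lowest adjusted p of the 5 (958, 861 and 470 normalized counts in +Dox, 278 and 246 in -Dox; -1.55 ± 0.52, adjusted p = 0.11; adjusted p = 0.0426 with the 5 iPax7 libraries). Rad51d overlapped between the groups, with 514 to 581 in +Dox and 368 and 520 in -Dox. In satellite cells Xrcc2 (adjusted p = 0.041, lost in most fits that left out 1 library) and Xrcc3 (adjusted p = 0.022, lost without replicate 2 of +Dox or of satellite cells, adjusted p = 0.078 and 0.0561) were lower than in +Dox, and none of the 5 differed from -Dox past the threshold.

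Of 6 genes of end resection, none passed the threshold in edgeR without Dox (4 at an unadjusted p under 0.05, and 3 called by DESeq2). All 6 had both -Dox libraries below all +Dox libraries, against 22.7% of all genes. Exo1, the exonuclease of long-range resection, had 1278, 1066 and 823 normalized counts in +Dox and 102 and 106 in -Dox (-3.34 ± 1.08, adjusted p = 0.099; adjusted p = 0.0013 with the 5 iPax7 libraries). Dna2, a nuclease of the same step, differed between the -Dox libraries (1 and 135). The MRN complex, which detects broken ends, had smaller differences: Mre11a, Rad50 and Nbn had log2 fold changes of -1.15, -1.10 and -0.72. Rad50 was the highest member per kb of exon in +Dox.

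Rbbp8, which encodes CtIP, the factor that starts resection with the MRN complex, was the other member that was higher in satellite cells. It had 725, 609 and 432 normalized counts in +Dox, 190 and 260 in -Dox, and 1365, 3048 and 2853 in satellite cells. No 2 groups overlapped. Satellite cells were higher than +Dox by 2.04 ± 0.40 (adjusted p = 0.0030) and than -Dox by 3.43 ± 0.50 (adjusted p = 0.00079), and each alternative fit kept both calls. In -Dox against +Dox its log2 difference was -1.39 ± 0.45 (adjusted p = 0.10). Mre11a and Rad50, which act with CtIP, were lower in satellite cells than in +Dox (-1.91 ± 0.34, adjusted p = 0.0017, and -1.59 ± 0.42, adjusted p = 0.014).

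The enzymes that resolve joined molecules included Mus81, the member with the smallest difference without Dox. Mus81, a nuclease subunit, had 1186, 1040 and 1064 normalized counts in +Dox, 999 and 1142 in -Dox and 666, 397 and 822 in satellite cells; its log2 difference in -Dox was -0.04 ± 0.39 and its sign turned in 5 of the alternative fits. Eme1, the partner with which MUS81 cuts, had 1188, 804 and 430 in +Dox, 58 and 34 in -Dox and 1, 38 and 92 in satellite cells (-4.13 ± 1.30 in -Dox, adjusted p = 0.092; adjusted p = 0.0045 with the 5 iPax7 libraries). Eme1 shares 221 exon bases with Lrrc59 and 75 with Mrpl27 on the other strand. The 2 subunits of 1 nuclease thus had different levels of RNA left without Dox, 97.6% of the +Dox mean for Mus81 and 5.7% for Eme1. Slx4, a nuclease scaffold, retained 70.3%.

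In the dissolution complex, Blm, Rmi1 and Top3a retained 60.2%, 65.8% and 74% of their +Dox means in -Dox. None of the 4 members passed the threshold in edgeR (1 at an unadjusted p under 0.05, and 0 by DESeq2, which gave 1 member no adjusted p). Rmi2 was scarce, with 13, 25 and 13 normalized counts in +Dox and 0 in both -Dox libraries, which makes it at least 12.45-fold lower at a floor of 3 counts over the group. Blm and Rmi1 were lower in satellite cells than in +Dox (-2.73 ± 0.86, adjusted p = 0.030, and -0.99 ± 0.34, adjusted p = 0.038), and both calls were lost without replicate 1 or 2 of +Dox. The call of Blm was also lost without replicate 2 of satellite cells, and that of Rmi1 in most fits that left out 1 library.

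Across the 37 members, satellite cells were compared with each iPax7 group in turn; both comparisons use the same satellite libraries. Against +Dox, 19 members were lower and 2 higher, where 19.8% of all genes were lower, 25.1% higher and 44.9% called in either direction. The share lower was 51.4% of the members. It was 59.4% in the list of other recombination and Fanconi genes described below, so a lower level was not particular to the members. In mismatch repair the share was 42.9%, in damage signalling 35% and in non-homologous end joining 33.3%. It was 25% in base excision repair, 23.5% in nucleotide excision repair and 92.9% in the proliferation markers. All 3 satellite libraries lay below all +Dox libraries in 27 members, against 26.3% of all genes, and above them in 2, against 30.2%. Against -Dox, 4 members were lower (Rad54b, Palb2, Fanci and Fancl) and 3 higher (Fancd2, Rbbp8 and Rad52), where 18.1% of all genes were lower, 20.9% higher and 39.0% changed in either direction, so the share of members that changed was below that of all genes. In 24 of 37 members the satellite and -Dox libraries overlapped; satellite libraries lay below both -Dox libraries in 9, against 30.6% of all genes, and above them in 4, against 33.7%. The median log2 difference of the members from -Dox was -0.39, and that of all genes was 0.23.

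**Figure D4:**
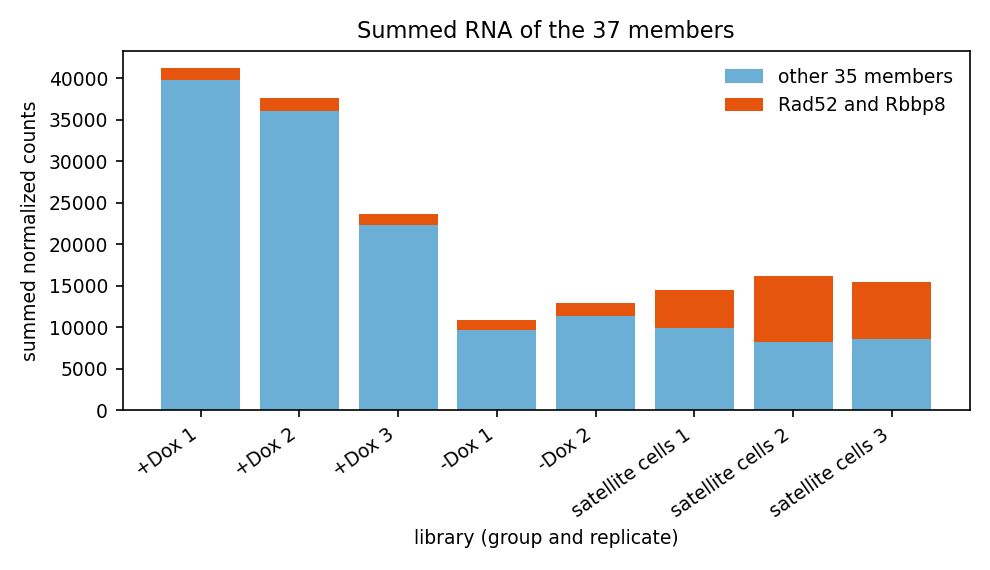
Summed normalized counts of the 37 members in each library, split into Rad52 with Rbbp8 and the other 35. Rad52 and Rbbp8 were singled out as the 2 members higher in satellite cells than in +Dox. The total is highest in the 3 +Dox libraries, and Rad52 with Rbbp8 make up 31.8 to 49.3% of it in satellite cells against 3.44 to 11.8% in iPax7 libraries.

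Rad52 and Rbbp8 made up a larger share of the total in satellite cells than in iPax7 cells. They were picked as the 2 members higher in satellite cells than in +Dox, so this larger share follows from the choice. Together they gave 4598, 7959 and 6870 normalized counts there, against 1188 to 1569 in the iPax7 libraries. The other 35 members summed to 8194 to 9880 in satellite cells and to 9682 and 11364 in -Dox. The satellite libraries also differed more among themselves: 18 of 37 members had more than 5-fold between the lowest and the highest satellite library, on normalized counts + 1, against 23.6% of all genes. In +Dox this was so for 1 member (Palb2), against 14.5% of all genes, and in -Dox for 2 (Dna2 and Fanca), against 8.37%.

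Markers of other cells moved with the satellite group. The 5 endothelial markers summed to 13678 to 19994 normalized counts in satellite libraries and to at most 166.6 in iPax7 libraries, and no endothelial marker was at 0 in all satellite libraries. The 5 blood markers summed to 2032 to 9097 against at most 464.3, with Hba-a1 at 0 in every library. The 5 mesenchymal markers summed to 43545 to 64326 against 2305 to 9745. Of these 5, 4 were higher in satellite cells than in +Dox. Ly6a had a lower mean there (2623, against 5063 in +Dox), which did not pass the threshold. The 7 immediate early and heat shock genes summed to 326819 to 876589 in satellite libraries against 2778 to 3218. The part of these in the differences of the members was not tested. In bulk RNA, fewer cells of a type and less RNA per cell cannot be told apart. The 7 muscle precursor markers, Pax7 among them, summed to 238827 to 271589 in satellite libraries.

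To place the members among other genes of DNA repair, 5 lists of other repair genes were described in -Dox against +Dox. A further list, 7 genes of mismatch repair, is given by counts only. Of these 7, 6 had a negative log2 fold change, 1 fell, none rose, and the median was -1.17. Of 32 other recombination and Fanconi genes, 2 fell, Rad51ap1, a cofactor of strand exchange (-2.56 ± 0.62, adjusted p = 0.037), and Usp1, which removes ubiquitin from FANCD2 (-1.66 ± 0.38, adjusted p = 0.029), and the median was -0.57. Of 20 damage signalling genes, 4 fell and 1 rose, where 3.04% of all genes fell and 4.66% rose. Those that fell were Clspn (-3.68 ± 0.81, adjusted p = 0.024), Chek1 (-2.51 ± 0.65, adjusted p = 0.046), Chek2 (-2.33 ± 0.53, adjusted p = 0.028) and Topbp1 (-1.83 ± 0.45, adjusted p = 0.038), which serve the replication and damage checkpoints. Cdkn1a, an inhibitor of cell cycle kinases, rose (1.96 ± 0.25, adjusted p = 0.0018).

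Genes of 3 other repair pathways did not pass the test in edgeR. None of 12 genes of non-homologous end joining (median -0.18), 16 of base excision repair (median -0.11) and 17 of nucleotide excision repair (median 0.22) passed the threshold, with a background of 7.70% called in either direction. At an unadjusted p under 0.05 these numbered 1, 6 and 0, and DESeq2 called 0, 2 and 0, with no adjusted p for 1 gene of base excision repair. The log2 fold changes in these lists ran from -1.20 to 1.43, from -4.46 to 6.46 and from -0.68 to 0.90. In lists this short, the lack of calls in edgeR does not set them apart from the background. By comparison 13 of 14 proliferation markers fell, with a median of -3.51, among them Mki67 (-4.18 ± 0.73, adjusted p = 0.0080) and Pcna (-1.88 ± 0.29, adjusted p = 0.0042). Their summed level was 130093 to 139642 normalized counts in +Dox, 15058 and 15681 in -Dox, and 12745 to 17343 in satellite cells. Pcna alone had 8859 to 12038 normalized counts in +Dox, 2658 and 2863 in -Dox, and 7856 to 11580 in satellite cells. Pcna was thus a large part of the satellite sum. Of the 14 markers, 10 had a negative log2 difference in satellite cells against -Dox and 4 a positive one. All 8 muscle differentiation markers rose in -Dox, from a sum of 7886 to 9377 in +Dox to 1803713 and 1866871. Proliferation and differentiation markers moved with the same contrast as the members, and their part in the members' differences was not tested.

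**Figure D5:**
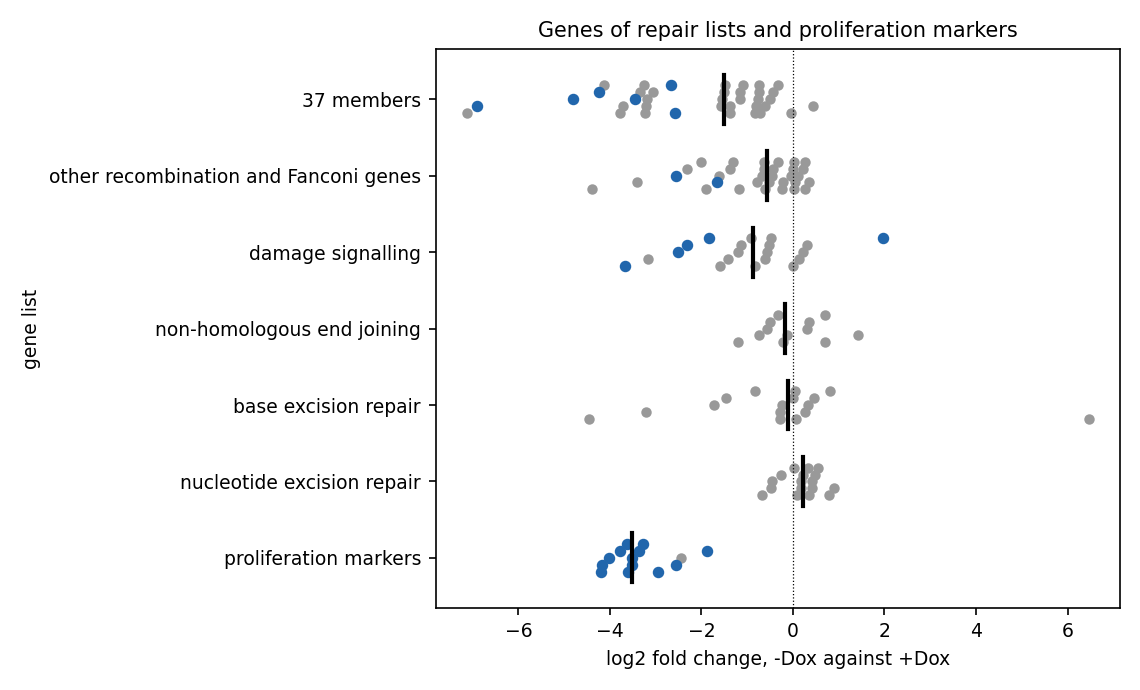
Log2 fold change of each gene in -Dox against +Dox for the 37 members, 5 other repair lists and the proliferation markers. Points are genes, blue points passed an adjusted p of 0.05, and bars are medians; the median is -1.51 for the members, -3.51 for proliferation markers and 0.22 for nucleotide excision repair.

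Open chromatin was found at the promoters of the members in every condition, as at those of most genes. ATAC-seq, which finds open chromatin, had been done in +Dox cells, at 12 h, 24 h and 3 days after Dox withdrawal, in myotubes made from iPax7 cells, and in satellite cells. A peak lay within 1 kb of an annotated start of all 37 members in each of the 6 peak lists, against 84.8 to 89.9% of 13981 genes tested. At the Fancd2 promoter the fold enrichment of the highest peak was 11.1 in +Dox, 6.77 at 12 h, 12.7 at 24 h, 13.2 at 3 days, 7.596 in myotubes and 8.40 in satellite cells. At Fanca it was 19.0, 11.6, 21.0, 10.4, 11.8 and 11.3, and at Rad54b, whose RNA was nearly absent from satellite cells, it was 20.1, 15.9, 28.5, 32, 13.2 and 7.03. Rad52 had 11.9, 10.4, 13.7, 9.90, 9.31 and 14.1 in the same order. The median over all 13981 genes, with genes without a peak included at no enrichment, also ranged. It went from 12.1 in satellite cells and 12.4 at 12 h to 22.3 at 24 h. Each peak list was made by the authors from merged replicates of different depth, so these values have no error and were not tested between samples.

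Histone marks at the same promoters changed at few members. H3K4me3, a mark of active promoters, had a peak at all 37 in +Dox and in -Dox at 3 days, against 87.2% and 91.6% of all genes. H3K27Ac, a mark of active promoters and enhancers, had a peak at 34 members in +Dox and at 30 in -Dox, against 72.6% and 68.7% of all genes. The 4 that had a peak in +Dox and none in -Dox were Bard1, Rad54l, Dna2 and Fanca, against 9.4% of the 10149 genes with a peak in +Dox. H3K4me1, a mark of enhancers and promoter flanks, had a peak at all 37 in +Dox and none in -Dox at Bard1 and Rmi2, against 2.7% of the 12335 genes with a peak in +Dox. H3K27me3, the mark of Polycomb repression, lay within 1 kb of 3 members in each condition, against 19.3% and 16.6% of all genes. These were Rad51b, Rbbp8 and Fancl in +Dox and Rad51b, Rad51d and Fancc in -Dox, so 2 of the 3 marked members had lost the peak, against 23.6% of 2704 marked genes. Within 500 bases it lay at 0 and 1. The 6 members that fell without Dox had none. These peaks carry no height in the files and come from merged replicates.

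Pax7 regions were rare near the starts of these genes, as near those of all genes. None of the 37 members had a Pax7 region of +Dox cells within 5 kb of a start, where 3.4% of all genes did, and 3 members had one within 50 kb, where 13.6% did. The nearest were 12.4 kb from Nbn, 20.1 kb from Rad54b, inside its gene body (chr4:11506243-11506856), and 25.4 kb from Fancf. The median distance was 374.5 kb for the members and 313.8 kb over all genes. Of these 3 members, Rad54b fell in -Dox, while Nbn and Fancf did not pass the threshold.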

How the data were processed

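Gene counts were deposited by the authors as whole reads per gene symbol, unnormalized, in the layout of HTSeq-count, 1 table per library. The submitters' processing notes list Trimmomatic 0.32, TopHat2 2.0, Bowtie2 2.2 and HTSeq 0.6 with build mm9; annotation, strand setting and kit are not given in the sources used here. ATAC peaks came from merged replicates called in MACS2 2.0.10, with the authors' fold enrichment ratio and −log10 p and q per peak; histone and Pax7 regions were deposited as coordinates on mm9, called with Qeseq.

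Counts were filtered with filterByExpr, scaled by TMM and fitted with edgeR 4.0.16 (R 4.3.3) quasi-likelihood tests, with 1 mean for each of 3 groups over 8 libraries; the tests were checked on simulated data. Standard errors are approximate: the absolute log2 fold change over the root of the F statistic. Replicate numbers came from the count tables' names. Gene positions and exon lengths were taken from GENCODE M1 (NCBIM37), and a promoter peak was one within 1000 bases of a coding start. Alternatives were DESeq2 1.42.0 and its size factors, no filter, fits of the groups compared, a replicate block, leaving out each library, 500-base windows, ATAC peaks with −log10 q of at least 10, and 50 kb for Pax7. C2C12 data were not used here.

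The members and gene lists were chosen with earlier results of these data known. All members were named; values of every library were given for members past the threshold without Dox and for the 5 with the largest change in each other comparison, and for others where a sentence singles them out. From each other repair list but mismatch repair, up to 4 called genes with the largest changes were named, beside Pax7, Mki67 and Pcna. Topbp1 was named after its values were seen. Some genes of these lists are not reported here.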

Additional observations from a re-analysis of the deposited data

How the results depend on the processing

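Of the members called in -Dox against +Dox, 6 with all libraries, 15 were called with only the 5 iPax7 libraries and 15 with DESeq2's Wald test; leaving out 1 library gave 1 to 11. All genes called numbered 1142, against 2155 with the 5 iPax7 libraries, 2137 with DESeq2 and 488 to 1444 with 1 library left out. In satellite cells against -Dox the 7 members became 4 to 9 and the 5780 genes 3204 to 6131 with 1 library left out, the lowest values without a -Dox library (4 members without replicate 2). The 21 members of satellite cells against +Dox ranged from 16 to 22. Where a -Dox library was left out, the remaining one was assumed to vary like the other groups. Same-numbered libraries did not deviate together (r within 0.05 of 0 across genes), so the replicate number was not taken to pair them. The 2 -Dox libraries deviate from their mean as mirror images, so this check says little for them. With a replicate block 3 members and 742 genes were called over 8 libraries, and 24 members and 4017 genes over the 5 iPax7 libraries. In the latter fit replicate 3 stood only in +Dox, so the block fitted that library exactly and its spread was not counted. Mus81 turned sign without Dox, at 0.003 with DESeq2 size factors and with DESeq2, 0.072 with the replicate block, and -0.122 (without -Dox replicate 2) to 0.057 (without -Dox replicate 1) with 1 library left out. H3K27me3 lay at 0 (+Dox) and 1 (-Dox) members within 500 bases, and Pax7 within 50 kb of 3. The common dispersion, edgeR's estimate of the spread within groups, was 0.413 over all 8 libraries and 0.251 over the 5 iPax7 libraries. Between these fits Brca1 kept a log2 fold change of -3.71 in -Dox against +Dox, with an SE of 1.27 and then 0.755. The cause of the changes between fits was not tested. At this depth a member under 3 counts over a group, such as Rad54b in satellite cells, is not distinguishable from absent RNA.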
